A study of Saccharomyces cerevisiae with 4 samples.

Results

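Y′ elements are repeated blocks of DNA that lie next to the telomere repeats at many chromosome ends of budding yeast (Saccharomyces cerevisiae). Their long reading frame encodes a helicase-like protein, named Yrf1 where the frame is intact, and some of the cells that survive without telomerase amplify Y′ elements by recombination. The frames described here are taken as 1 sequence carried at several ends and read by several probes. They are the 7 frames YRF1-1 to YRF1-7 and the 3 frames YLL066C, YLL067C and YIL177C. They were chosen by name from the 5500 reading frames of the value table, in which all 10 are listed. In the assembly R64 gene table they lie at 8 ends of 7 chromosomes, and 7 of them are the outermost protein-coding frame of their end.

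The study compared polyadenylated RNA of a bre1 strain with that of wild-type yeast on 4 2-colour arrays, each giving 1 log2 ratio per reading frame. Arrays 1 and 3 had bre1 RNA in Cy3 and wild-type RNA in Cy5, and arrays 2 and 4 had the reverse. The labels give neither the kind of bre1 mutation nor the strain background, growth or mating type of the strains, nor do they tell if each array had its own culture. The p-values therefore reflect array-to-array spread alone, possibly technical. BRE1 codes for the ligase that places ubiquitin on histone H2B, and Set1 and Dot1 need that mark to methylate histone H3. The silent chromatin that Sir proteins build beside telomeres is known to be sensitive to loss of these marks.

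Which way the ratios run was examined first. The deposited values lay on an even grid once unlogged with base 2. On arrays 2 and 4, 2 to the power of the value fell on whole multiples of a step of 0.000923 and 0.00102. On arrays 1 and 3 it was 2 to the power of minus the value that did so, with steps of 0.00109 and 0.00106. In each case 100% of the distinct ratios under 3 lay within 0.05 of a step, against 11.2% to 14.5% for the opposite sign or for natural and base-10 logs. The split follows the dyes in the labels. Rounding every array in the same dye direction and then turning the sign between the dye orientations would give this pattern. The grid alone does not show which dye was the numerator. Across the 3840 frames, arrays of opposite dye orientation had Pearson correlations from 0.20 to 0.65, all above 0. Those of the same orientation had 0.75 (arrays 1 and 3) and 0.54 (arrays 2 and 4). A single step per array also shows that each array was scaled by 1 factor, with no intensity-dependent correction after rounding. All 4 arrays were therefore taken to run the same way, either bre1 over wild type or wild type over bre1. BRE1 itself had log2 ratios of -1.65 on array 1 and -3.17 on array 3 and no value on arrays 2 and 4, so bre1 over wild type was taken as the likely direction. If the opposite held, every sign below would be turned. Between 4354 and 4759 frames had a value on an array. Scanner intensities were not analysed here, and precision is limited by having 4 arrays.

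The Y′ helicase frames were lower in bre1 than in wild type on every array that gave a value. Of 40 possible values (10 frames on 4 arrays) 29 were present, all 29 were below 0, and 28 were below -0.6 on the log2 scale. The 6 frames with a value on each array were between 1.83-fold and 2.56-fold lower in bre1, and the mean over these 6 was a log2 ratio of -1.12, or 2.18-fold lower. All 6 passed an adjusted p under 0.05 when the mean of each frame was set against 0 in limma (Benjamini-Hochberg over all 3840 frames measured on 4 arrays). Of all tested frames 10.7% passed in either direction and 4.79% passed as lower in bre1. Whether less RNA per cell or fewer cells making it lies behind a ratio cannot be told apart in RNA from whole cultures.

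Of the 7 YRF1 frames, 3 were measured on all 4 arrays. YRF1-2 (YER190W, chromosome V right end) had log2 ratios of -1.14, -1.13, -1.29 and -1.11 on arrays 1 to 4. Its arrays lay close together, with array 3 slightly lower, and its mean was -1.17 ± 0.08 (SD, n = 4), 2.24-fold lower in bre1 (limma adjusted p = 0.00711). YRF1-5 (YLR467W, chromosome XII right end) had -1.13, -1.13, -1.08 and -1.06. This was the tightest of the 6, at -1.10 ± 0.03 (SD, n = 4) or 2.14-fold lower (limma adjusted p = 0.00711), and 0.156% of the 3840 tested frames had a smaller SD over the arrays. YRF1-3 (YGR296W, chromosome VII right end) had -1.11, -1.61, -0.88 and -0.94, with array 2 apart from the other 3. Its mean was -1.13 ± 0.33 (SD, n = 4), 2.19-fold lower (limma adjusted p = 0.0112).

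The 3 frames without a YRF1 name, also parts of Y′ elements, included the lowest and the highest of the 6 means. YLL067C, the outermost frame of the chromosome XII left end, had -1.32, -1.29, -1.74 and -1.08 on arrays 1 to 4. Its mean was the lower extreme, at -1.36 ± 0.27 (SD, n = 4) or 2.56-fold lower in bre1 (limma adjusted p = 0.00711), and its mean ranked 9 from the lowest among 3840 frames. YLL066C, which lies close to it at the same end and has the same annotated length of 3717 bp, had -1.10, -0.89, -0.88 and -0.63. Its mean was the upper extreme, at -0.87 ± 0.19 (SD, n = 4), 1.83-fold lower (limma adjusted p = 0.0178). YIL177C, at the chromosome IX left end, had -1.08, -1.04, -1.30 and -0.98. Its mean was -1.10 ± 0.14 (SD, n = 4), 2.15-fold lower (limma adjusted p = 0.00733).

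**Figure D1:**
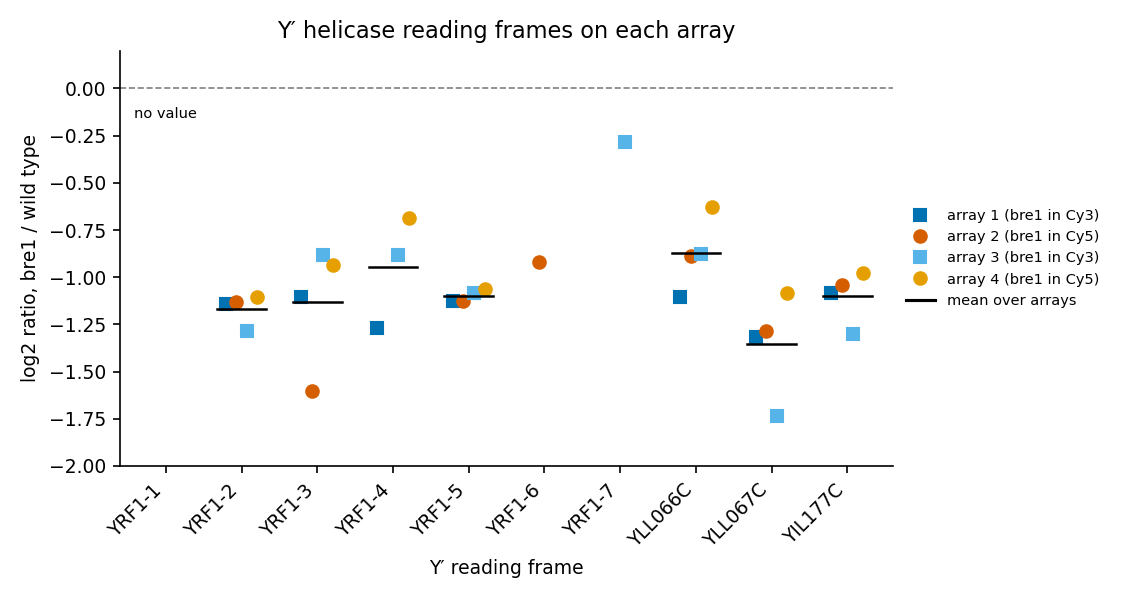
Log2 ratio of bre1 over wild type (vertical axis) for each of the 10 Y′ helicase frames (horizontal axis), with 1 point per array, circles where bre1 RNA carried Cy5 and squares where it carried Cy3, and a black line at the mean where more than 1 array gave a value. All 29 points lie below 0, and the point of YRF1-7 at -0.28 stands above the others.

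The other 4 frames could not be tested with every array. YRF1-4 (YLR466W), the inner neighbour of YRF1-5, had log2 ratios of -1.27, -0.88 and -0.69 on arrays 1, 3 and 4, a mean of -0.95 ± 0.30 (SD, n = 3). When frames with at least 3 values were admitted it passed as well, at a limma adjusted p of 0.0303 over 4527 frames, of which 408 passed. YRF1-6 (YNL339C) had only a value of -0.92 on array 2, and YRF1-7 (YPL283C) only a value of -0.28 on array 3. YRF1-1 (YDR545W) had none.

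The calls of these frames depended on which arrays entered and on the variance model. Without array 2 no frame of the whole table passed in limma, and 815 were under 0.05 before adjustment. The 6 Y′ frames then had means between -1.38 and -0.87, with limma adjusted p from 0.0525 to 0.0840, and all 6 were under 0.05 before adjustment. Without array 1, 5 of the 6 passed and YLL066C had a limma adjusted p of 0.0720. A test with each frame's own variance, without limma's moderation, called 2 frames in all, and YRF1-5 was 1 of them.

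Set among all frames, the Y′ helicase frames lay in the low tail on each array. Their mean was -1.15, -1.18, -1.19 and -0.97 on arrays 1 to 4, with an SD between the 6 frames of 0.09, 0.25, 0.32 and 0.18. The share of tested frames that lay below that mean was 5.44%, 2.21%, 1.48% and 0.938%. The median of all tested frames was -0.01, 0.09, -0.08 and 0.10 on the same arrays. All 6 were below 0 on every array, as were 16.6% of tested frames. A mean below -1 was found for 5 of the 6 and for 1.43% of all tested frames. A value below -0.6 on every array was found for all 6 and for 1.04% of tested frames.

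**Figure D2:**
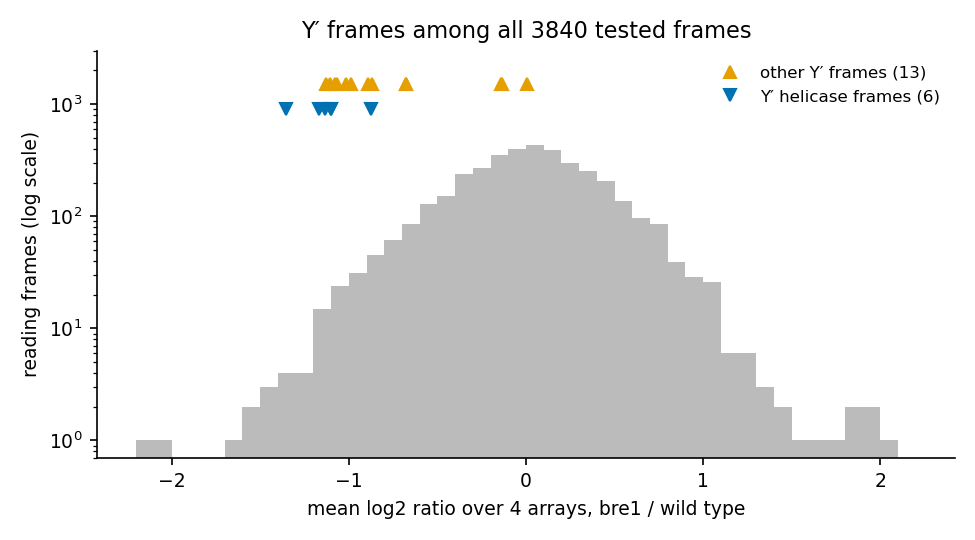
Histogram of the mean log2 ratio of bre1 over wild type for all 3840 tested frames (horizontal axis, bins of 0.1; vertical axis, frames on a log scale), with the 6 tested Y′ helicase frames as blue triangles and 13 other Y′ frames as orange triangles placed above the bars. The blue triangles lie between -1.36 and -0.87, and 3 orange ones lie near 0.

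The second question was how closely probes of this repeated sequence matched each other. The means of the 6 frames had an SD of 0.15 between frames and spanned a factor of 1.40. The SD of a frame over the 4 arrays had a median of 0.17 (range 0.03 to 0.33), and the mean of the 6 frames had an SD of 0.11 over the arrays. The median SD over arrays was 0.33 for all tested frames. Among the 15 pairs of frames, 14 had mean log2 ratios within 0.3 of each other, and the difference had the same sign on all 4 arrays in 7. YLL066C and YLL067C were the furthest apart. Their difference (YLL066C minus YLL067C) was 0.21, 0.40, 0.86 and 0.45 on arrays 1 to 4, a mean of 0.48 ± 0.27 (SD, n = 4). YRF1-5 and YIL177C were the closest, with a mean difference of 0.00103 ± 0.15 (SD, n = 4). An exact two-sided sign-flip permutation test cannot give a p under 0.125 with 4 arrays, so it says nothing on whether pairs differ, and the differences are given as a description.

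Some frames of equal annotated length gave unequal values. YRF1-3, YRF1-6 and YRF1-7 share a length of 5728 bp (introns included). On array 2 the log2 ratio was -1.61 for YRF1-3 and -0.92 for YRF1-6, and on array 3 it was -0.88 for YRF1-3 and -0.28 for YRF1-7. Each of these comparisons rests on 1 array, and array 2 stood apart from the others for YRF1-3. YIL177C and YJL225C, both of 5665 bp, lay nearer each other, at -1.04 and -0.88 on array 2. YRF1-4 and YRF1-5, neighbours at the chromosome XII right end, have unequal lengths of 4149 and 5391 bp. They differed by -0.14, 0.20 and 0.38 (YRF1-4 minus YRF1-5) on arrays 1, 3 and 4, with no common sign. Copies of this repeat can share probe signal, so a value cannot be assigned to 1 chromosome end. The sequences of the frames and of the probes were not used here.

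The dye orientations were compared next, since the array set exchanges the dyes. The Y′ helicase frames were low in both orientations. With bre1 in Cy5 the 6 means lay between -1.27 (YRF1-3) and -0.76 (YLL066C), and with bre1 in Cy3 between -1.53 (YLL067C) and -0.99 (YLL066C). The difference, Cy5 minus Cy3, was 0.01 for YRF1-5, 0.09 for YRF1-2, 0.18 for YIL177C, 0.23 for YLL066C, 0.34 for YLL067C and -0.28 for YRF1-3. Its median over the 6 was 0.14, and the median over all tested frames was also 0.14 (quartiles -0.19 and 0.47). In a fit with a dye term, 4 of 3840 frames (0.104%) passed for the dye term at an adjusted p under 0.05. None of the 6 was among them, with limma adjusted p between 0.520 and 0.983, and none was under 0.05 before adjustment, as 734 of all tested frames were.

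**Figure D3:**
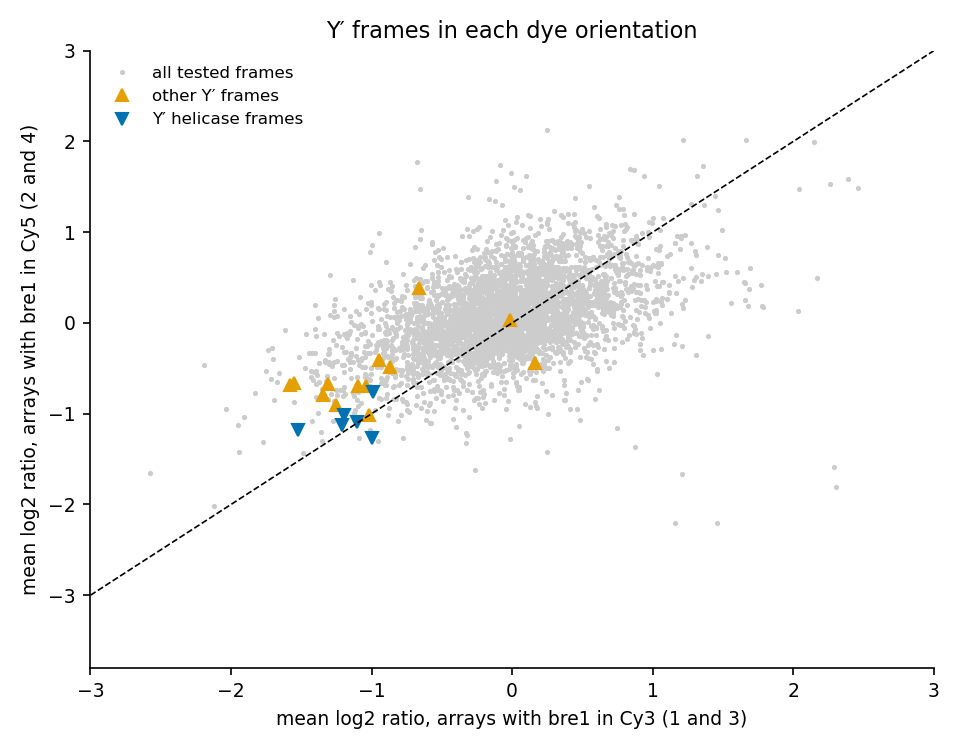
Mean log2 ratio of bre1 over wild type on the arrays with bre1 in Cy5 (vertical axis) against that on the arrays with bre1 in Cy3 (horizontal axis) for all tested frames (grey), other Y′ frames (orange) and Y′ helicase frames (blue); the dashed line marks equal values. The blue points lie near the line, and most orange points lie above it.

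Other frames of the Y′ elements, which include shorter or broken copies of the helicase frame and small frames beside it, were mostly lower in bre1 as well. Of 22 listed, 20 were in the value table and 13 had values on all 4 arrays. Of these 13, 10 fell (76.9%), none rose and 3 did not pass, where 4.79% of all tested frames fell and 5.89% rose. Their median was -0.89, beside 0.02 over all tested frames. YHL050C had log2 ratios of -1.42, -1.01, -1.09 and -0.80 on arrays 1 to 4, a mean of -1.08 ± 0.26 (SD, n = 4, limma adjusted p = 0.0104). YML133C had -1.28, -1.20, -0.76 and -0.83, a mean of -1.02 ± 0.26 (SD, n = 4, limma adjusted p = 0.0135). Both were low on every array. YHR219W was 2.09-fold lower and YPR203W 1.86-fold lower, with limma adjusted p of 0.0141 and 0.0182. The count of 10 became 2 without array 1, 3 without array 3, and 0 both without array 2 and without moderation, where 10 had an unadjusted p under 0.05 in each case.

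**Figure D4:**
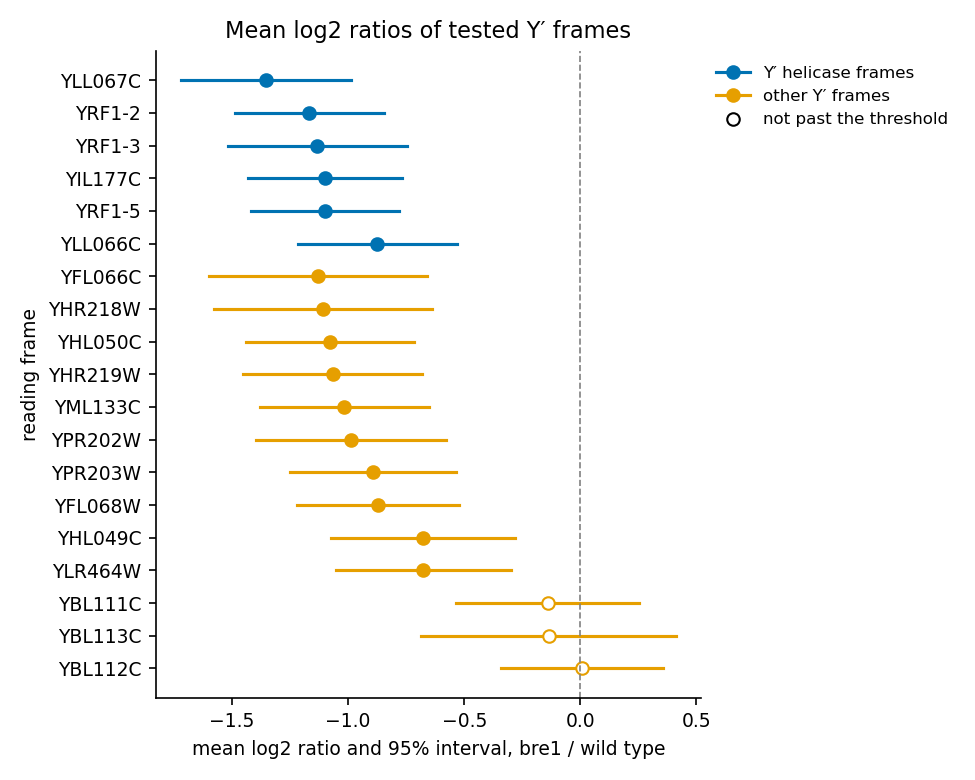
Mean log2 ratio of bre1 over wild type (horizontal axis) with the 95% interval from limma's moderated variance over 4 arrays for the 6 tested Y′ helicase frames (blue) and 13 other Y′ frames (orange); filled points passed an adjusted p under 0.05 and open points did not. All 6 blue intervals lie below 0, and the 3 open points are the frames of the chromosome II left end.

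Among these other frames the difference Cy5 minus Cy3 had a median of 0.40 and was above 0 for 12 of 13, beside a median of 0.14 and 5 of 6 for the helicase frames. The 2 groups of frames were not tested against each other. YFL066C and YHR218W, picked after their values were seen, show it most plainly among the frames that fell. YFL066C had -1.58 and -1.58 on arrays 1 and 3 and -0.63 and -0.72 on arrays 2 and 4. YHR218W had -1.61 and -1.50 on arrays 1 and 3 and -0.71 and -0.61 on arrays 2 and 4. None of the 13 passed for the dye term in limma, and 5 were under 0.05 before adjustment. The 13 have a median annotated length of 1179 bp (range 309 to 4224 bp) and the 6 helicase frames of 5218.5 bp (range 3717 to 5728 bp). The part of length or dye in these values was not tested.

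The frames were also grouped by the chromosome end where R64 places them, with the limit that shared probe signal can come from other ends. Y′ frames of the table lie at 16 ends, 15 of which had at least 1 value, and at 14 of those every value was below 0. At the 11 ends with a tested frame, every tested frame fell at 10 and none at 1, the chromosome II left end. That end was singled out after its values were seen. Its frame YBL111C had log2 ratios of 0.20, -0.51, 0.12 and -0.37 on arrays 1 to 4, and YBL112C had 0.03, -0.23, -0.06 and 0.29. YBL113C had -0.78, 0.05, -0.54 and 0.73. The 3 means of -0.14, 0.01 and -0.14 have 95% intervals of -0.53 to 0.25, -0.34 to 0.35 and -0.68 to 0.41, and none of these intervals reaches the mean of the helicase frames. The same frames were not tested against the others directly.

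Except for YER189W, the tested frames next inward from the helicase frames had means nearer 0 than any tested helicase frame. These neighbours were not tested against the helicase frames, and some of their intervals span helicase means. Of the 10 inward neighbours, 2 are themselves listed Y′ frames, and 1 of the remaining 8 is not in the value table. Of all 3840 tested frames, 1819 had a mean below 0 and 4.79% fell. The 5 neighbours that were tested had means below 0, and 1 of them fell. This was YER189W beside YRF1-2, at -1.18, -0.86, -1.19 and -0.70 on arrays 1 to 4, a mean of -0.98 ± 0.24 (SD, n = 4, limma adjusted p = 0.0141). Whether YER189W is itself part of a Y′ element was not examined. COS6 beside YRF1-3 and COS1 beside YRF1-6, members of a subtelomeric family of membrane proteins, had means of -0.82 ± 0.68 and -0.77 ± 0.54 (SD, n = 4, limma adjusted p = 0.0612 and 0.0502). Their 95% intervals were -1.37 to -0.26 and -1.25 to -0.29. COS6 was low on arrays 1 and 2 (-1.29 and -1.52) and nearer 0 on arrays 3 and 4 (-0.20 and -0.26). COS1 had -1.32, -1.09, -0.55 and -0.13 on arrays 1 to 4. PAU10 beside YRF1-1 and PAU14 beside YIL177C, of the seripauperin cell wall family, had means of -0.46 ± 0.33 and -0.49 ± 0.23 (SD, n = 4, limma adjusted p = 0.110 and 0.0726). PAU18 beside YLL066C averaged -0.27 ± 0.17 (SD, n = 3), and PAU22 beside YRF1-7 had a value of 0.80 on array 3 only. The count of 1 in 5 was not stable: 4 passed as lower with a dye term and with array weights, 3 without array 4, and none without array 1, without array 2 or without moderation.

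A wider set of subtelomeric frames gave the setting of these values. Among the outermost 10 protein-coding frames of each end that are in no Y′ list, 167 were tested, of which 23 fell (13.8%) and 4 rose (2.40%), with a median log2 ratio of -0.21. Over all tested frames 4.79% fell and 5.89% rose, with a median of 0.02. Among the outermost 5 per end, 13 of 71 fell (18.3%) and none rose, with a median of -0.33. YER189W and YFL065C, which lie beside Y′ frames, are among those that fell in both sets. Leaving out 1 array at a time gave between 0 and 32 lower frames in the first set and between 0 and 19 in the second, with 0 in each without array 2. The lowest mean in either set was -1.18. This lay below the mean of every tested Y′ helicase frame except YLL067C (-1.36), with YRF1-2 next at -1.17.

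The genes that act on telomeres were described from 2 lists. Of all 3840 tested frames 10.7% passed in either direction, 1158 had an unadjusted p under 0.05, and 2 passed without moderation. With 9 and 3 genes tested, the lists are too short to tell a count of 0 from these shares. Of 18 telomere maintenance genes, which serve telomerase, end capping and length control, 9 were tested and none passed in limma, with 1 at an unadjusted p under 0.05 and none without moderation. Their median was 0.05. RIF2, a telomere-bound inhibitor of lengthening, had a mean of -0.51 ± 0.32 (SD, n = 4, limma adjusted p = 0.0811), and TEN1, of the end-capping complex, 0.35 ± 0.42 (SD, n = 4, limma adjusted p = 0.233). RIF2 passed as lower with a dye term (limma adjusted p = 0.0475). Of 9 silencing genes, 3 were tested and none passed in limma, with 1 at an unadjusted p under 0.05 and none without moderation. SAS4 and SAS2, of a histone acetyltransferase that limits the spread of silent chromatin, had means of 0.58 ± 0.53 and 0.22 ± 0.21 (SD, n = 4, limma adjusted p = 0.101 and 0.371). SAS4 passed as higher without array 4 (limma adjusted p = 0.0207), with array pairs averaged (0.0386), with a dye term (0.0435) and with array weights (0.0438).

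The frames with the profile nearest to the mean of the 6 helicase frames were sought by Euclidean distance over the 4 arrays, outside the Y′ lists. FRE2, a ferric reductase gene of iron uptake that ranks 4 from a chromosome end, was nearest at a distance of 0.216, with log2 ratios of -1.15, -1.22, -1.10 and -0.78. SUR1 of sphingolipid synthesis followed at 0.325, then YER189W at 0.418, DIC1, a mitochondrial dicarboxylate carrier, at 0.426 and YFL065C at 0.431. YER189W and YFL065C lie beside Y′ frames (YRF1-2 and YFL066C), and SUR1 and DIC1 lie far from any chromosome end. The annotated lengths of YER189W and YFL065C, 369 and 309 bp, are those of the listed Y′ frames YEL075C and YPR203W. Whether YER189W and YFL065C are themselves parts of Y′ elements was not examined. Among the 13 other Y′ frames the nearest was YHL050C at 0.377 and the furthest YBL112C at 2.27.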

How the data were processed

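The authors deposited 1 log2 ratio of the 2 channels per reading frame and array; per the labels, bre1 and wild-type polyadenylated RNA were hybridised together with the dyes exchanged between arrays. The base and the single factor per array were read from the grid of the values, with background correction, spot filter and scanner type not given in the sources used here. Gene names, lengths and gene order came from the assembly R64 gene table, and no coordinates are printed because the values name no build.

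From these ratios, the mean was tested against 0 using limma 3.58.1 under R 4.3.3 (an intercept-only lmFit, eBayes, two-sided, Benjamini-Hochberg over 3840 frames with values on all 4 arrays, threshold 0.05). The fit was tested on simulated data. Exact sign-flip tests used scipy 1.17.1. Errors are SDs over arrays and 95% intervals use the moderated variance. The 10 frames and the lists were chosen with earlier results of these data known. Named genes were the 10 frames, BRE1, for each list at most 4 called genes (otherwise the 2 with the smallest p), inward neighbours and the 5 nearest profiles. The results of 1 further list are not reported here. Alternatives left out each array, changed the filter, centring, scale, weights, variance model or dye term, or averaged arrays in pairs.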

Additional observations from a re-analysis of the deposited data

How the results depend on the processing

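Over all 3840 frames the count past the threshold was 410, and leaving out 1 array at a time gave between 0 and 677. It was 897 with a dye term, 679 with array pairs averaged, 685 with array weights and 2 without moderation. Of the 6 tested Y′ helicase frames, between 0 and 6 passed when 1 array was left out and 1 passed without moderation. The other settings kept all 6, and admitting frames with at least 2 or 3 values gave 7. With every value of the 6 at -0.63 or lower, leaving out an array could not change the sign of a mean. The dye term, array pairs averaged and no moderation leave each mean as it is. Under the 14 settings the means of the 6 stayed between -1.45 and -0.80. Removing the per-array factor, added after seeing the data, moved them to between -1.28 and -0.80. The SD between the frames was 0.15, with a range of 0.13 to 0.18 when 1 array was left out, also added afterwards, and 0.16 with YRF1-4 included. The cause of the calls lost without array 2 or without moderation was not tested. The fits without array 1, 3 or 4 also have 1 array fewer and kept 5, 6 and 6 of the 6. The test without moderation has fewer degrees of freedom. No paired analysis was possible because all arrays form 1 group. Dim spots could not be filtered, since signal over background was not used here.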

Other observations

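Of the 20 other Y′ frames in the value table, 7 had values on fewer than 4 arrays and stayed outside the test. YFL067W had the lowest mean of these, with log2 ratios of -1.41, -1.60 and -1.20 on arrays 1, 2 and 4. YEL077C had -1.41, -1.07 and -0.66 on arrays 1, 3 and 4, and YLR462W had -1.30, -1.26 and -0.60 on the same arrays. YEL076C had -1.31, -0.81 and -0.80 on arrays 1, 2 and 4. With at least 3 values admitted, these 4 passed in limma with adjusted p between 0.00968 and 0.0282, where 408 of all 4527 frames passed. The other Y′ frames called numbered 14 in that fit and 13 with at least 2 values admitted. YPR204W was uneven, with -0.94, -0.21 and -1.40 on arrays 1, 3 and 4 (limma adjusted p = 0.0686). YEL075C had -1.27 and -0.66 on arrays 1 and 4, and YJL225C, of the same annotated length of 5665 bp as YIL177C, had -0.88 on array 2, where YIL177C had -1.04. Every value of these 7 frames lay below 0.

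Low values on every array were common among Y′ frames. Of the 3840 tested frames, 40 lay below -0.6 on all 4 arrays. Of these, 12 were Y′ frames, which is 30.0% of the 40 and 63.2% of the 19 Y′ frames tested.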
